A study of Canis lupus familiaris with 8 samples.

Results

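Oxidative phosphorylation is carried out in the inner mitochondrial membrane by complexes I to IV, which pass electrons from NADH and succinate to oxygen and build up a proton gradient, and by complex V, the ATP synthase, which uses that gradient to make ATP. Each complex is assembled from many nuclear-encoded subunits, and complexes I, III, IV and V also hold subunits made from mitochondrial DNA. The heart depends on this pathway for nearly all of its ATP, and its transcripts are among the brightest on arrays of cardiac tissue.

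The subunit genes were taken by symbol from the platform annotation, as names that start with NDUFA, NDUFB, NDUFC, NDUFS or NDUFV and a digit, NDUFAB1, SDHA to SDHD, UQCR, CYC1, CYCS, COX4 to COX8 and ATP5. This gave 56 genes out of 6540 with a single symbol, on 102 probe sets, and each gene is described by its brightest probe set by mean signal over all 8 arrays unless another is named. Of these genes, 53 passed the filter on dim probe sets and were tested, 29 of complex I, 3 of complex II, 7 of complex III, cytochrome c itself (CYCS), 4 of complex IV and 9 of complex V. NDUFC1, COX4I2 and COX6A2 did not pass it. NDUFA4 is counted with complex I by its symbol, although the protein is now assigned to complex IV. No mitochondrial DNA-encoded subunit was found by symbol, so the description covers nuclear-encoded subunits and is not complete for any complex.

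The tissue was heart from 8 male dogs weighing between 23 and 27 kg, and the total RNA of each dog went on an Affymetrix canine array of its own. Controls 1 to 4 were compared with dogs 5 to 8, which received methionine in their drinking water for 2 weeks, a model of chronic hyperhomocysteinemia (HHcy), in which the blood level of the amino acid homocysteine is raised. The dose, the measured homocysteine, the age and breed of the dogs and the heart chamber are not given in the labels. The series asks how chronic HHcy alters gene expression in the heart, where its title speaks of oxidative stress and of the substrates the heart burns. Signals are MAS5 intensities on a linear scale, the number of arrays limits their precision, and signals of different probe sets cannot be compared as levels.

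HHcy 6 stood apart from the other 7 arrays. The cardiac label was borne out on those 7, where the summed signal of 16 cardiomyocyte markers was 266870 to 415558 in controls and 286886 to 323909 on HHcy 5, 7 and 8, while on HHcy 6 it was 21707. TNNI3, the cardiac troponin I that defines cardiomyocytes, was 393 on HHcy 6 and at least 20831 on every other array. The summed signal of 4 smooth muscle markers was 63167 on HHcy 6, where controls had 3284 to 11598 and HHcy 5, 7 and 8 had 8047 to 9402. For 11 macrophage and myeloid markers the sum was 6375 to 9242 in controls, below the 12126 to 23107 of the HHcy arrays. The sum of 7 fibroblast markers was 13100 to 21137 in controls, and 40018, 52334, 45679 and 20787 on HHcy 5 to 8. The 3'/5' signal ratio of the actin control probe sets, a sign of RNA quality, reached 599.6 on HHcy 6 and 15.3 on HHcy 5, while the controls had 0.378 to 2.49, HHcy 7 had 2.67 and HHcy 8 had 1.69. The same ratio for GAPDH was 10.5 on HHcy 6, 17.2 on HHcy 5, 5.14 on HHcy 7, 3.56 on HHcy 8 and 1.46 to 3.76 in controls. The part of cell composition and RNA quality in the results on subunits was not tested beyond the values given here, and log2 fold changes of the members and medians of the groups are given with and without HHcy 6 where they are central.

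No subunit gene passed the test between HHcy and control dogs. HHcy 6 lay below the control range for 51 of the 53 tested genes. On HHcy 5, 16 lay below that range and 19 above it, on HHcy 7 the numbers were 18 and 1, and on HHcy 8 they were 6 and 14. The share of all probe sets outside that range was not computed, so these counts are not read as particular to the subunits. The median log2 deviation of all tested probe sets from the control mean was 0.21, 0.38, 0.049 and 0.12 on HHcy 5 to 8. Among the 53 tested genes, limma with Benjamini-Hochberg adjustment over 14301 probe sets called 0 lower and 0 higher, where it called 0% of all probe sets lower and 0.0979% higher. At an unadjusted p under 0.05, 10 of the 53 were lower (18.9%) and 1 was higher, against a background of 5.94% lower and 11.9% higher. The members' median log2 fold change was -0.42, beside 0.15 for all tested probe sets, and 51 of the 53 lay below 0 (40% of all tested probe sets did). Without HHcy 6 the median was 0.096, beside 0.10 for all probe sets, with 24 of the 53 below 0 (42.3% of all probe sets were). At an unadjusted p under 0.05, 10 were then lower and 2 higher, against backgrounds of 6.27% and 8.5%. Without HHcy 5 and HHcy 6, NDUFC1 also passed the filter, and 4 of 54 members were lower and 0 higher (backgrounds 4.2% and 4.07%). Of these 4, 3 were among the 53 and the other was NDUFC1. Without control 2 and HHcy 6, a setting added after seeing the data, 11 were lower and 2 higher (backgrounds 5.17% and 8.71%). In bulk tissue, fewer cells of a type and less RNA per cell cannot be told apart.

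The size of the HHcy 6 difference varied between subunits. HHcy 6 was the lowest of the 8 arrays for 51 of the 53 genes, against 17.9% of all tested probe sets, and the highest for 1, COX4I1, against 35.3%. The median deviation from the control mean on that array was -2.16 (log2), whereas it was 0.12 on HHcy 5, -0.043 on HHcy 7 and 0.16 on HHcy 8, within the -0.16 to 0.21 of single controls. By complex, the HHcy 6 median was -2.14 for complex I, -2.23 for complex II, -2.58 for complex III, -0.58 for complex IV and -2.14 for complex V. The cardiomyocyte markers, with a median of -4.73 on that array, deviated further. The lowest members there were NDUFA9 at -3.82, NDUFS7 at -3.55 and ATP5MC1 at -3.37, and the highest were COX4I1 at 0.77, COX8A at 0.56 and ATP5F1B at -0.41.

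**Figure D1:**
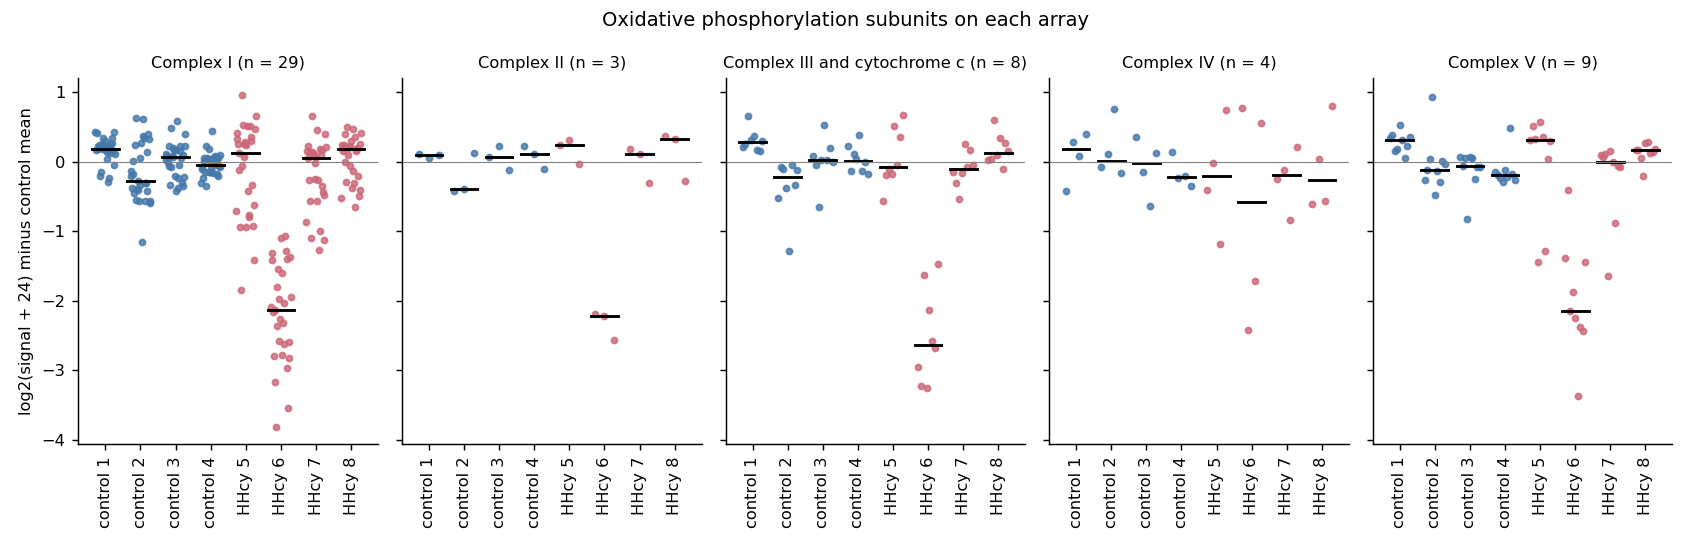
Deviation of log2(signal + 24) from the control mean (vertical axis) for each tested subunit gene on each array, in 1 panel per complex, with cytochrome c beside complex III; points are genes and black bars are medians. The points of HHcy 6 lie far below the rest in each panel except that of complex IV, where COX4I1 and COX8A lie above 0, and on HHcy 5 and HHcy 7 some complex I and complex V genes lie well below the rest.

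By brightest probe set, the tested subunits whose signals were lower on all 4 HHcy arrays belonged to complex I, the NADH dehydrogenase. Further probe sets of SDHC and SDHD in complex II and of ATP5F1A in complex V were also lower on all 4. NDUFS1, the large iron-sulfur subunit of the NADH-oxidising arm, had signals of 3057, 4558, 3467 and 3482 in controls 1 to 4 and of 2100, 859, 1785 and 2279 in HHcy 5 to 8. All 4 HHcy signals of NDUFS1 lay below all 4 controls, also with HHcy 6 set aside. Its log2 fold change was -1.12 ± 0.31 (SE), a 2.17-fold lower level, and it did not pass (limma adjusted p 0.150). Without HHcy 6 its log2 fold change was -0.81.

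NDUFS8, an iron-sulfur subunit near the quinone site, had signals of 2645, 3145, 1869 and 2072 in controls and 878, 317, 1078 and 1687 in HHcy. The groups did not overlap, HHcy 8 lying closest to the controls. The log2 fold change of NDUFS8 was -1.46 ± 0.43 (SE, limma adjusted p 0.158), and -1.01 without HHcy 6. Its probe set carries the suffix x, which marks probes that can bind other transcripts, as do the brightest probe sets of NDUFS3 and UQCRC2.

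NDUFA10, an accessory subunit of the membrane arm, had signals of 6238, 4216, 4712 and 3756 in controls and 2820, 1073, 2547 and 3237 in HHcy, again with no overlap. Its log2 fold change was -1.05 ± 0.34 (SE, limma adjusted p 0.180), and -0.70 without HHcy 6. NDUFV1, the subunit that binds NADH and flavin, had signals of 2528, 3295, 2252 and 2523 in controls and 1697, 417, 1875 and 1978 in HHcy. It was named after its values were seen, being the only other tested member whose HHcy signals all lay below the controls. Its log2 fold change was -1.02 ± 0.44 (SE, limma adjusted p 0.256), and -0.50 without HHcy 6. With all arrays its 5 tested probe sets ran from -1.17 to -0.81. The groups thus did not overlap in the lower direction for 4 of the 53 members (7.55%), against 3.89% of all tested probe sets, and in the higher direction for 0, against 7.49%.

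The remaining complex I genes at an unadjusted p under 0.05, all lower, were NDUFA9, NDUFB7 and NDUFC2, which are accessory subunits and apart from NDUFA9 are named here after their values were seen. NDUFA9 had signals between 561 and 1122 in controls, and of 184, 28.7, 322 and 583 in HHcy 5 to 8. Only HHcy 8 reached the control range. NDUFA9 had a log2 fold change of -1.76 ± 0.61 (SE, limma adjusted p 0.193), and -1.08 without HHcy 6. NDUFS7, which carries the iron-sulfur cluster next to the quinone site, had 3810 to 6141 in controls and 2666, 414, 3743 and 4424 in HHcy (log2 fold change -1.28 ± 0.60, SE, limma adjusted p 0.289), and without HHcy 6 it had -0.52.

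Other catalytic subunits of complex I had values close to the controls or above them apart from HHcy 6, and NDUFS3, NDUFV2 and NDUFAB1 are named here after their values were seen. NDUFS3, a core subunit of the peripheral arm, had 12303 to 21808 in controls, 8677 on HHcy 6, and 20719 to 25932 on the other HHcy arrays. NDUFV2, an iron-sulfur subunit beside NDUFV1, had 9265 to 18355 in controls, 5273 on HHcy 6 and 16314 to 19070 on the rest. Their log2 fold changes were -0.0071 and -0.063, and without HHcy 6 they were 0.35 and 0.37. The 6 tested catalytic subunits had a median of -1.07, the 9 tested NDUFA and NDUFAB1 genes -0.41, the 9 NDUFB genes of the membrane arm -0.42, and the 5 other accessory genes -0.19. Without HHcy 6 these medians were -0.51, 0.17, 0.096 and 0.20, so that only that of the catalytic subunits stayed below 0. Single genes below 0 were then 4 of the 6, 4 of the 9, 3 of the 9 and 2 of the 5, in the same order. The 4 catalytic ones had dimmer probe sets than NDUFS3 and NDUFV2. The lowest complex I value was that of an accessory gene, NDUFA9, at -1.08. The subgroups were formed with earlier results known. NDUFAB1, the mitochondrial acyl carrier protein, had 6447 to 13298 in controls and 18446, 1823, 14964 and 13404 in HHcy. Without HHcy 6 it had the highest log2 fold change among the members by brightest probe set, 0.70. Its HHcy signals then all lay above the controls, as for 1.89% of the members and 8.97% of all tested probe sets. A second, dimmer NDUFAB1 probe set had 320 to 606 in controls and 243, 228, 291 and 502 in HHcy. Its log2 fold change was -0.52, and -0.39 without HHcy 6. NDUFA4, with the brightest complex I probe set, had 20643 to 28425 in controls, 5427 on HHcy 6 and 25263 to 29072 on the rest.

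**Figure D2:**
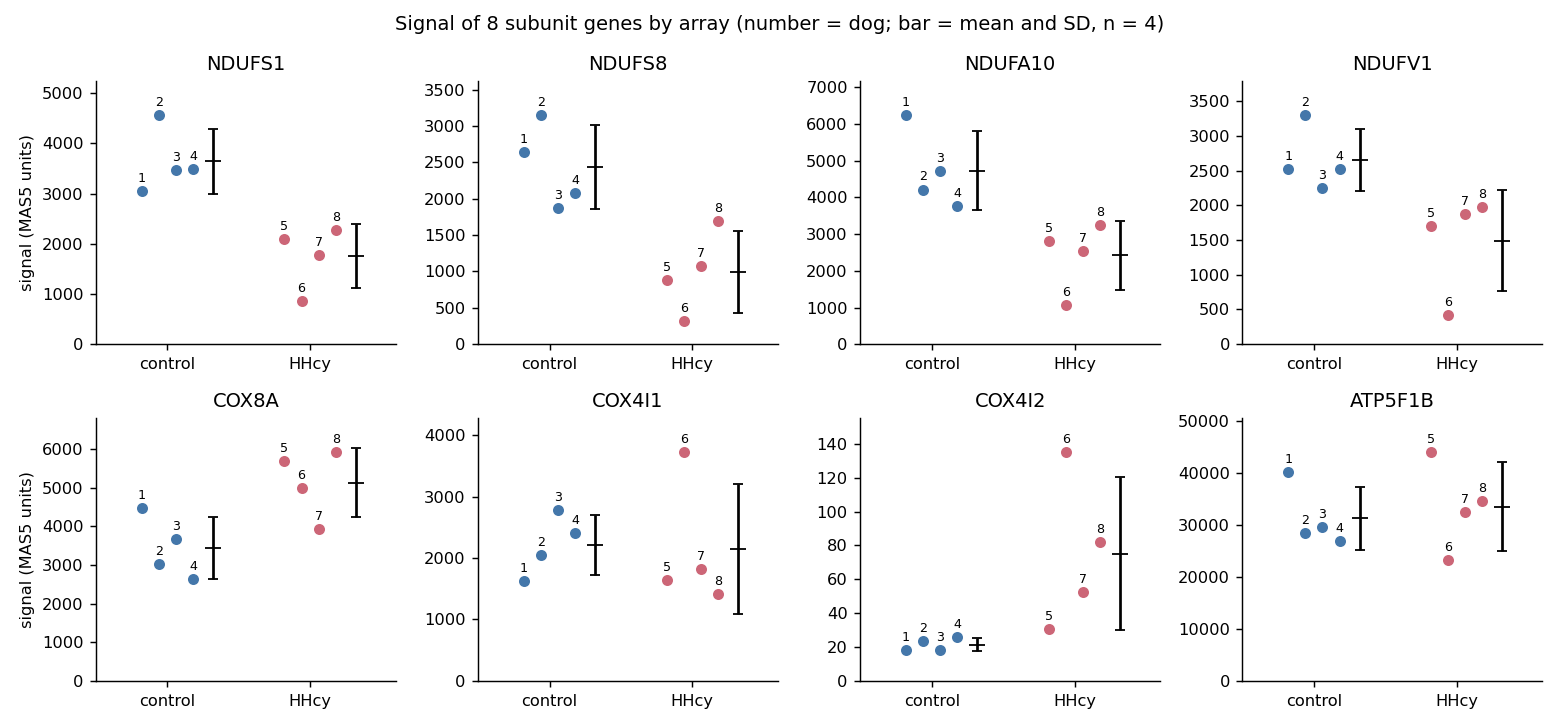
Signal in MAS5 units (vertical axes from 0) of 8 subunit genes in control and HHcy dogs; numbered points are dogs and the bar beside each group is the mean with its SD (n = 4). In NDUFS1, NDUFS8, NDUFA10 and NDUFV1 every HHcy point lies below every control point, whereas in ATP5F1B the groups overlap and in COX4I1 dog 6 is the highest.

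Complex II, succinate dehydrogenase, also belongs to the TCA cycle. Its iron-sulfur subunit SDHB had signals of 7687 to 12082 in controls and 12106, 2240, 11691 and 13320 in HHcy. The membrane anchor SDHC had 3217 to 4957 in controls and 5261, 886, 4573 and 5312 in HHcy. Apart from HHcy 6, both lay within or above the control range, and their log2 fold changes turned from -0.35 and -0.37 with all arrays to 0.26 and 0.25 without HHcy 6. SDHD, the other anchor, had 9562 to 11301 in controls and 10147, 1737, 8415 and 8555 in HHcy, and its log2 fold change was -0.79 ± 0.47 (SE, limma adjusted p 0.388). Thus HHcy 7 and HHcy 8 also lay below the controls on this SDHD probe set, which without HHcy 6 had -0.20. Another SDHD probe set, nearly as bright, had 9565 to 11421 in controls and 8605, 2244, 8605 and 8194 in HHcy, with no overlap. Its log2 fold change was -0.76, and -0.28 without HHcy 6. The second SDHC probe set, dimmer than the first, had 1549 to 2531 in controls and 1034, 497, 1497 and 1505 in HHcy, with no overlap.

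Complex III passes electrons from ubiquinol to cytochrome c. CYC1, cytochrome c1, had signals of 3807, 2280, 3483 and 3836 in controls and 2212, 401, 2967 and 3327 in HHcy, and its log2 fold change was -0.91 ± 0.55 (SE, limma adjusted p 0.397). CYCS, the mobile carrier cytochrome c, had 16112 to 21189 in controls and 15602, 1866, 14409 and 18237 in HHcy (log2 fold change -0.92 ± 0.59, SE, limma adjusted p 0.424). Both overlapped the controls, and without HHcy 6 they had -0.23 and -0.15. UQCRC2, a core protein, had 13334 to 16470 in controls, 2423 on HHcy 6 and 13559 to 14148 on the other HHcy arrays. UQCRH, the hinge protein and the brightest of this complex, had 17273 to 24090 in controls, 7062 on HHcy 6 and 19012 to 31083 on the rest. All 7 complex III genes had a log2 fold change below 0, from -0.91 to -0.17, and without HHcy 6 they ran from -0.23 to 0.37.

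Complex IV, cytochrome c oxidase, differed in its makeup, with only COX4I1, COX5A, COX7A2L and COX8A tested. COX7A2L, a factor that links complexes III and IV into supercomplexes, had signals of 4396, 7089, 2685 and 3612 in controls and 1825, 1250, 2322 and 2798 in HHcy. HHcy 8 lay above the lowest control. The log2 fold change of COX7A2L was -1.08 ± 0.34 (SE, limma adjusted p 0.171), and -0.86 without HHcy 6. COX8A, a small structural subunit, was the only member at an unadjusted p under 0.05 in the higher direction, with 4464, 3019, 3671 and 2634 in controls and 5682, 4995, 3932 and 5925 in HHcy. Its groups overlapped by HHcy 7, and its log2 fold change was 0.58 ± 0.25 (SE, limma adjusted p 0.256) and 0.59 without HHcy 6. COX4I1, the widely expressed form of subunit 4, had 1619 to 2778 in controls, 3724 on HHcy 6 and 1416 to 1823 on the other HHcy arrays, with a log2 fold change of -0.12, and of -0.42 without HHcy 6. COX5A, which sits beside subunit 4, had 20365 to 29375 in controls, 4485 on HHcy 6 and 22060 to 24639 on the rest.

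The dim members of complex IV are given as values. COX4I2, a form of subunit 4 best known from lung, had 18.4, 23.4, 17.98 and 25.8 in controls and 30.9, 135, 52.2 and 81.8 in HHcy. Every HHcy array lay above every control, at signals near the pseudocount of 24, and with no filter on dim probe sets its limma adjusted p was 0.294. COX6A2, the heart and skeletal muscle form of subunit 6A, had 3.34 to 22.2 on 7 arrays and 715 on HHcy 8, and its other probe set had 5.04 to 109. The HHcy 8 value was thus seen on only the first COX6A2 probe set, the other reading 81.1 on that array. In complex I, NDUFC1 had 84.1 to 142 in controls and 16.3, 112, 6.29 and 44.6 in HHcy.

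In complex V, the ATP synthase, the brightest probe sets of the catalytic head lay within or above the control range on HHcy 5, 7 and 8, and those of ATP5F1A and ATP5F1C were low on HHcy 6. ATP5F1B, the catalytic beta subunit, had signals of 40271, 28434, 29572 and 26980 in controls and 44100, 23222, 32464 and 34645 in HHcy, with a log2 fold change of 0.084 ± 0.25 (SE, limma adjusted p 0.877). The value was 0.25 without HHcy 6, and turned to -0.056 with quantile scaling and -0.28 with median scaling. ATP5F1A, the alpha subunit, had 18426 to 28080 in controls, 8450 on HHcy 6 and 23554 to 27493 on the rest, and ATP5F1C, the gamma subunit, had 15831 to 20700, 4206 and 19348 to 23372 in the same order. ATP5PO, which joins the head to the peripheral stalk and was also named after its values were seen, had 18834 to 28911, 8247 and 21328 to 27642. Dimmer probe sets of the head differed from these. An ATP5F1A probe set had 4305 to 5546 in controls and 3358, 1502, 2701 and 4030 in HHcy, with no overlap (log2 fold change -0.81 ± 0.30, SE, limma adjusted p 0.214). Another had 2529 to 5983 in controls and 1072, 372, 1998 and 2490 in HHcy, also with no overlap (-1.52 ± 0.52, SE, limma adjusted p 0.193). Without HHcy 6 these values were -0.53 and -0.98.

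ATP5IF1 and ATP5MC2 were the complex V genes at an unadjusted p under 0.05. ATP5IF1, the inhibitor that stops the enzyme from running in reverse, had signals of 5803, 9788, 2885 and 4190 in controls and 1870, 1381, 1620 and 4447 in HHcy. HHcy 5, 6 and 7 lay below the controls, and HHcy 8 did not. The inhibitor's log2 fold change was -1.29 ± 0.43 (SE, limma adjusted p 0.182), and -1.10 without HHcy 6. ATP5MC1, ATP5MC2 and ATP5MC3 each encode the same mature c subunit of the rotor ring with a different import sequence. ATP5MC2 had 2224, 1741, 1799 and 3009 in controls and 865, 393, 1154 and 2336 in HHcy (log2 fold change -1.10 ± 0.44, SE, limma adjusted p 0.239). ATP5MC1 had 18578 to 26766 in controls, 2078 on HHcy 6 and 21610 to 27732 on the rest, and ATP5MC3 had 15585 to 20576, 3234 and 16870 to 19239. Without HHcy 6 the log2 fold change was -0.68 for ATP5MC2, 0.21 for ATP5MC1 and 0.040 for ATP5MC3.

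The subunits with lower HHcy signals had dimmer probe sets. When the 53 members were divided at their median mean signal of 10133, a division made after the values were seen, all 10 at an unadjusted p under 0.05 in the lower direction were among the 26 dimmer ones and 0 among the 27 brighter ones. Over all tested probe sets the share was 6.09% below that signal and 0.495% at or above it. The median log2 fold change was -0.89 for the dimmer and -0.35 for the brighter members, and without HHcy 6 it was -0.35 and 0.21. On HHcy 5 the dimmer members had a median deviation of -0.49 and the brighter ones 0.31, on HHcy 7 the values were -0.37 and 0.092, and on HHcy 8 they were -0.067 and 0.20. Across the 53 members, Spearman's rho between mean signal and log2 fold change was 0.51, and 0.57 without HHcy 6. Over 5013 tested genes with all arrays it was -0.20, and over 5022 without HHcy 6 it was -0.070. The mean signal includes the HHcy arrays, so a lower HHcy signal also lowers it, and mean signal and fold change are not independent measures. The members share the same 8 arrays and are not independent, so no test was made. Among controls the same rho with the deviation ran from -0.26 on control 4 to 0.46 on control 1.

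**Figure D3:**
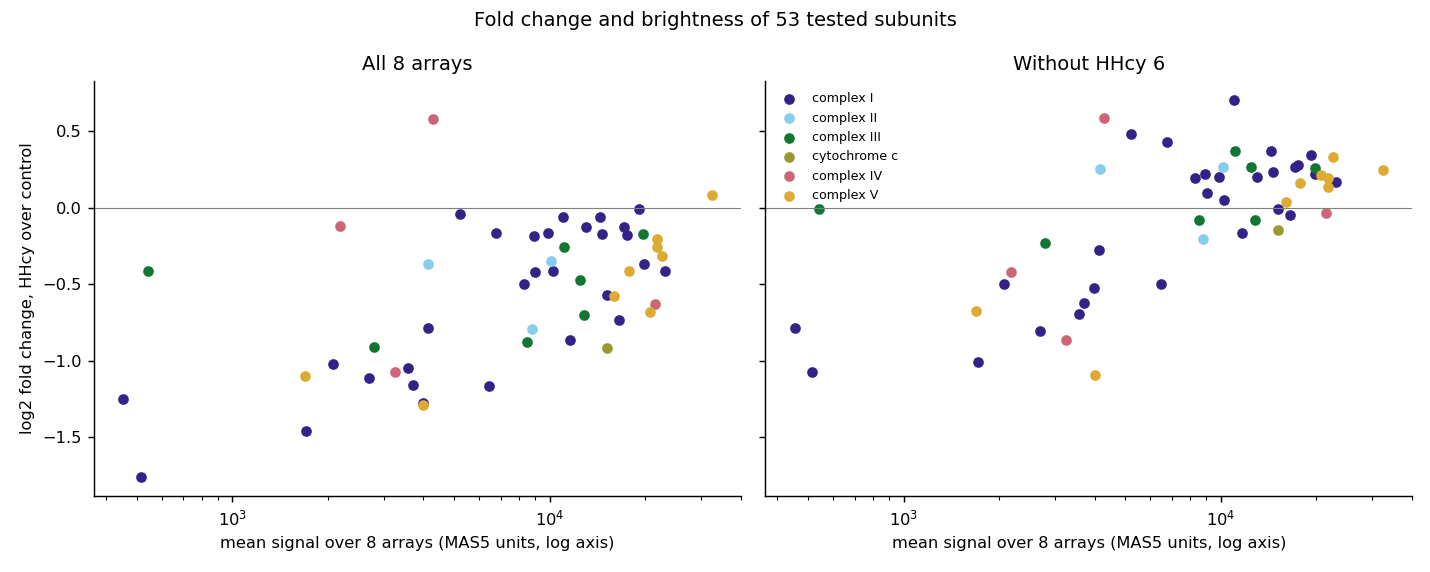
Log2 fold change of HHcy over control (vertical axis) against mean signal over 8 arrays (MAS5 units, log axis) for the 53 tested subunits, coloured by complex, with all arrays (left) and without HHcy 6 (right). On the right most brighter members lie slightly above 0 and most dimmer ones below it, with medians of 0.21 and -0.35.

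Different probe sets of a subunit gene often disagreed. Of the members, 23 had 2 or more tested probe sets, and 26 of their 39 further probe sets had a lower log2 fold change than the brightest one. The brightest was chosen by mean signal with the HHcy arrays included. A probe set lower in HHcy was thus less likely to be chosen, and this comparison is a description only. The median was -0.70 for the further probe sets and -0.37 for the brightest of the same genes, and without HHcy 6 these were -0.17 and 0.19. With all arrays, the groups did not overlap in the lower direction for 5 of the 39 further probe sets (12.8%, against 3.89% of all). In the higher direction this held for 1 (2.56%, against 7.49%). In 8 genes the probe sets spanned more than 1 log2 unit. NDUFB8, a membrane arm subunit, had -0.041 on its brightest probe set, with signals of 2091 to 7013 in controls and 6442 to 6670 on HHcy 5, 7 and 8. A dimmer NDUFB8 probe set, which carries the suffix x, had 591 to 1043 in controls and 65.9, 31.8, 266 and 761 in HHcy, a log2 fold change of -2.28 ± 0.67 (SE, limma adjusted p 0.160).

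A second, dimmer ATP5MC2 probe set had 1361, 1649, 464 and 1262 in controls and 54.5, 148, 181 and 566 in HHcy. Its log2 fold change of -2.45 ± 0.56 (SE, limma adjusted p 0.121) was larger than the -1.10 of the brightest. Over all settings tried, these NDUFB8 and ATP5MC2 probe sets were the only ones among the members' to pass, and each did so in a single setting, without HHcy 8, where 0.0629% of all probe sets were called lower. ATP5F1C had a dim probe set in the other direction, with 573 to 1163 in controls and 1366, 5001, 1592 and 1514 in HHcy (log2 fold change 1.21 ± 0.40, SE, limma adjusted p 0.184), while its 3 other probe sets ran from -1.21 to -0.050. NDUFB5, of the membrane arm, had 3 probe sets from -0.87 to -0.57 and a dim one at 0.62.

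UQCRC2 and UQCRH of complex III had dimmer probe sets at -2.22 and -1.52, against -0.71 and -0.17 on the brightest. This UQCRH probe set had 4828 to 8776 in controls and 2818, 258, 4080 and 6754 in HHcy. The UQCRC2 probe set at -2.22 had 4551 on control 2 and 761 to 840 on the other controls. ATP5F1A ran from -1.52 to -0.20, and its probe set at -1.52 had 5983 on control 2 and 2529 to 3736 on the other controls. Control 2 had the lowest 3'/5' ratio of actin, 0.378. For ATP5IF1 the dim probe set had 0.083, against -1.29 on the brightest.

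**Figure D4:**
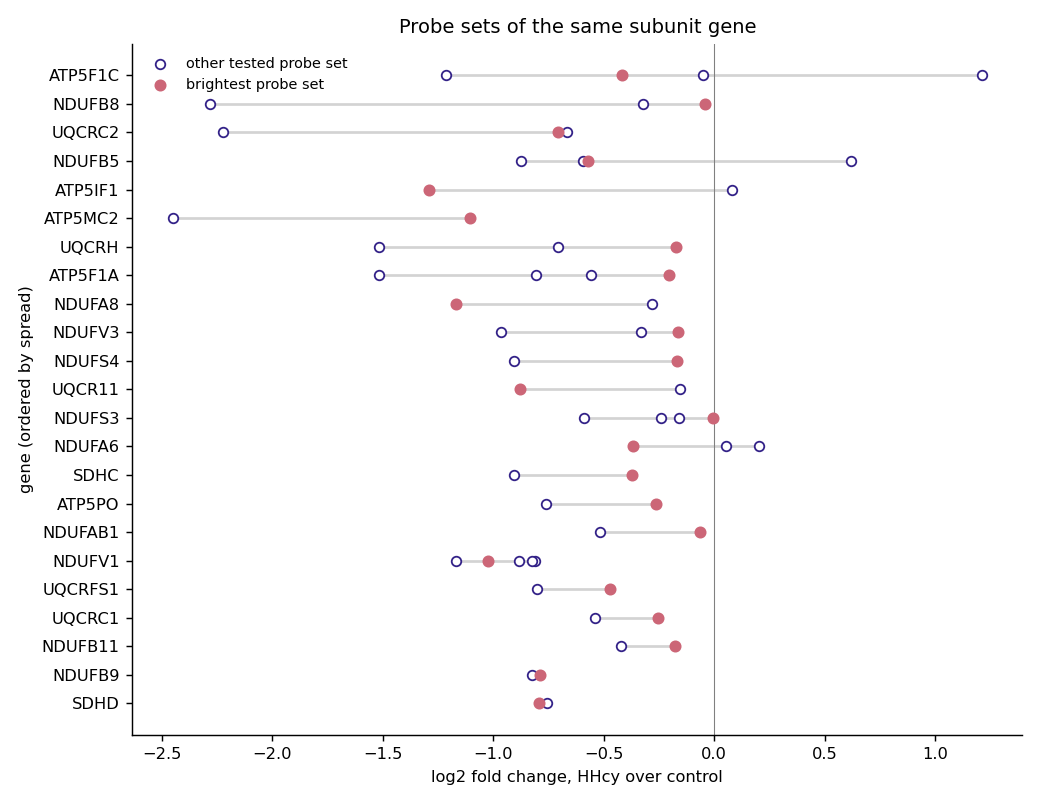
Log2 fold change of HHcy over control (horizontal axis) for every tested probe set of the 23 subunit genes that have more than 1, ordered by spread; filled points are the brightest probe set and open points the others. The brightest probe set, chosen with the HHcy signals included, lies at the right-hand, least lowered end for 14 genes, and ATP5F1C spans from -1.21 to 1.21.

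Other genes of the pathway and of mitochondria were taken from lists of 7 kinds with tested members. Again limma called 0 of them at an adjusted p under 0.05, and 17 were lower and 1 higher at an unadjusted p under 0.05, of 134 tested (12.7% and 0.746%), against 5.94% and 11.9% of all probe sets. Leaving out 1 array gave 8 (without control 4) to 21 (without HHcy 8) lower and 0 to 3 higher. Without HHcy 6 there were 13 and 2 (backgrounds 6.27% and 8.5%), and the backgrounds of the other settings are not given here. Without HHcy 6 the list medians were 0.17 for assembly factors, -0.12 for coenzyme Q synthesis, -0.017 for carriers, 0.15 for regulators, 0.093 for the mitochondrial ribosome, -0.030 for the TCA list and -0.10 for fatty acid oxidation. The values that follow are with all arrays unless stated. Of 24 assembly factors, 2 were lower (8.33%) and 0 higher, with a median log2 fold change of -0.10. FMC1, an assembly factor of complex V, had signals of 1143 to 1367 in controls and 911, 406, 901 and 803 in HHcy (log2 fold change -0.78 ± 0.29, SE, limma adjusted p 0.211). UQCC1, which acts in the assembly of complex III, had 1316 to 1691 in controls and 1208, 393, 1007 and 1214 in HHcy. The HHcy signals of both lay below the controls on all 4 arrays, and without HHcy 6 the log2 fold changes were -0.52 and -0.39. With all arrays, the groups did not overlap in the lower direction for 14 of the 134 genes (10.4%, against 3.89% of all probe sets). In the higher direction this held for 3 (2.24%, against 7.49%).

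Coenzyme Q carries electrons from complexes I and II to complex III. Of 8 tested genes of its synthesis, 0 were lower or higher at an unadjusted p under 0.05, with a median of -0.51. COQ8A, a regulator of that synthesis, had 2974 to 3970 in controls and 2686, 461, 2679 and 2579 in HHcy, with no overlap (log2 fold change -0.99 ± 0.49, SE, limma adjusted p 0.313), while COQ8B had 0.81. Without HHcy 6 they had -0.37 and 0.71. Of 15 carriers and other inner membrane genes, 2 were lower (13.3%) and 0 higher, against 5.94% and 11.9% of all probe sets, with a median of -0.43. NNT, which makes mitochondrial NADPH from the proton gradient, had 2794 to 3847 in controls and 2069, 477, 2431 and 1824 in HHcy (log2 fold change -1.18 ± 0.43, SE, limma adjusted p 0.212), and IMMT, the cristae organiser mitofilin, had 3732 to 4462 in controls and 2577, 950, 2757 and 3051 in HHcy. Neither gene's groups overlapped, and without HHcy 6 the log2 fold changes were -0.66 and -0.55.

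Among 9 transcriptional regulators of mitochondrial genes, 1 was lower (11.1%) and 0 higher, against 5.94% and 11.9% of all probe sets, with a median of 0.31. PPARGC1A, the coactivator PGC-1 alpha, had 155, 179, 214 and 54.7 in controls and 161, 57.0, 78.7 and 169 in HHcy, and its log2 fold change was -0.30 ± 0.45 (SE, limma adjusted p 0.738). GABPA, an ETS factor that binds promoters of respiratory genes, had 269 to 299 in controls and 337, 418, 379 and 383 in HHcy, with a log2 fold change of 0.38 ± 0.23 (SE, limma adjusted p 0.400). MEF2C, a muscle transcription factor, had 1791 to 2464 in controls and 1255, 1613, 1511 and 1355 in HHcy (log2 fold change -0.52 ± 0.22, SE, limma adjusted p 0.255). The groups of GABPA and MEF2C did not overlap, in opposite directions, and HHcy 6 was the highest HHcy array for both.

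The mitochondrial ribosome, which makes the subunits encoded by mitochondrial DNA, had 52 tested genes, with a median of -0.16. Of these, 7 were lower (13.5%) and 1 higher (1.92%), against 5.94% and 11.9% of all probe sets. MRPL16 had 1189 to 1642 in controls and 475, 54.9, 852 and 509 in HHcy (log2 fold change -1.90 ± 0.59, SE, limma adjusted p 0.171), and MRPS18C had 399 to 763 in controls and 804, 1169, 780 and 801 in HHcy (0.74 ± 0.27, SE, limma adjusted p 0.212). Without HHcy 6 they had -1.16 and 0.61. On HHcy 6 the list's median deviation was -0.82, against -2.16 for the subunits. Of 13 genes of the TCA cycle and pyruvate dehydrogenase, 3 were lower (23.1%) and 0 higher. IDH2, the mitochondrial isocitrate dehydrogenase, had 2753 to 4009 in controls and 1437, 197, 2246 and 2485 in HHcy. Its log2 fold change was -1.56, and -0.76 without HHcy 6, and that of PDHX, a binding protein of the pyruvate dehydrogenase complex, was -0.98 and -0.75. Of 13 fatty acid oxidation genes, which feed electrons into the chain, 2 were lower (15.4%) and 0 higher. The lowest by p were HADH at -1.22 and CPT2 at -0.77, and without HHcy 6 they had -0.90 and -0.53. The median deviations on HHcy 6 were -1.72 for the TCA list and -1.07 for fatty acid oxidation.

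**Figure D5:**
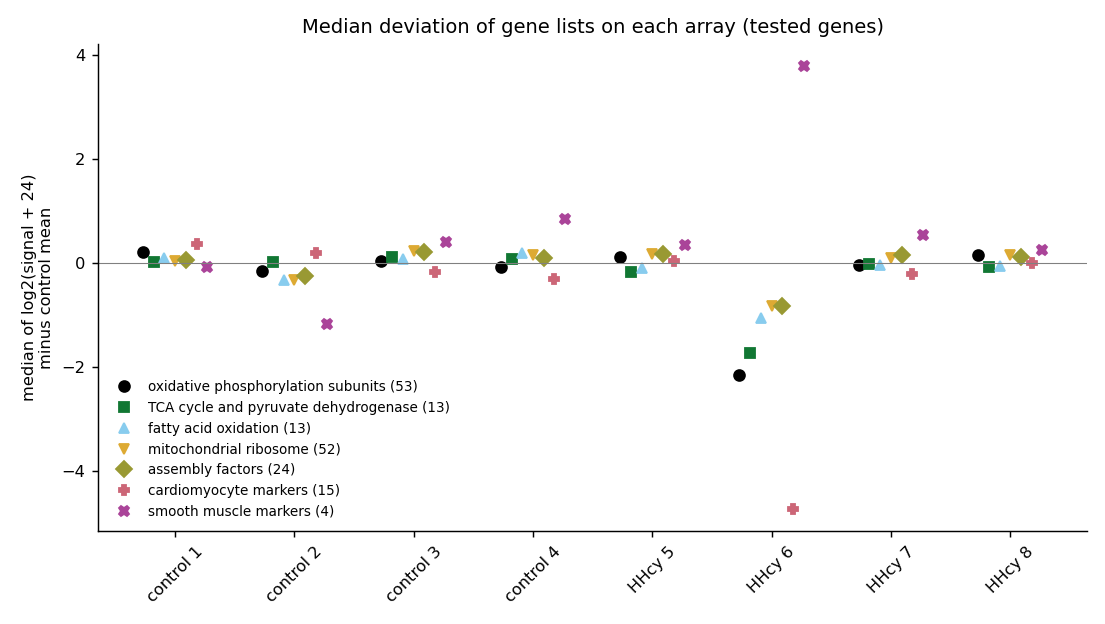
Median deviation of log2(signal + 24) from the control mean (vertical axis) for 7 gene lists on each array; the number of tested genes is given in the key. On HHcy 6 the subunits lie at -2.16, between the mitochondrial ribosome at -0.82 and the cardiomyocyte markers at -4.73, while the smooth muscle markers lie at 3.79; on the other HHcy arrays the subunits lie between -0.043 and 0.16.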

How the data were processed

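Total RNA of 8 dogs was measured on 1 Affymetrix canine array each. The authors deposited linear intensities, for which the submitters' processing notes name MAS5 (version not given in the sources used here). Their mean with 2% left out at each end was 500.08 to 500.10 on every array, so no further scaling was done. Samples were grouped by title, no batch is labelled, and the spread between arrays covers dogs and handling together. Genes were named by the platform annotation, which gave 1 symbol for 10549 probe sets and several for 138, and 54 of the 56 members matched the RefSeq gene table (assembly UU_Cfam_GSD_1.0) by identifier. No coordinates or sequences were used. For ATP5J2 the annotation's symbol was kept.

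A pseudocount of 24, taken from the low end of the signals, was added before log2, which understates the folds of dim genes. After removal of 77 control probe sets and of the dimmest 40%, 14301 probe sets remained. Groups were compared with limma 3.58.1 (R 4.3.3), using lmFit and eBayes (trend by intensity), and p-values were adjusted by Benjamini-Hochberg with a threshold of 0.05. The procedure was tested on simulated data. Errors are standard errors of log2 fold changes. The members, lists and settings were chosen with earlier results of these data known. Named members are, per complex, the 3 of lowest p and the brightest, the subunit isoforms and c subunit genes, those whose tested probe sets differ by over 1, and the 3 lowest and highest on HHcy 6. Others named are the 2 of lowest p per list and PPARGC1A, with exceptions stated. COX4I2 was too dim for the planned comparison of isoforms of subunit 4, and the other isoform pairs were not both measured. Alternatives were other scalings, pseudocounts of 6 and 96, filters, variance models, array weights, the mean over a gene's probe sets, the 3'/5' ratio as a covariate, and leaving out arrays. The setting without control 2 and HHcy 6 was added after seeing the data.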

Additional observations from a re-analysis of the deposited data

Results flagged for a closer look

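In 15 sets of 4 arrays a single array lay further from the rest than Dixon's critical value allows for the gap divided by the range, which chance exceeds in about 1 in 20 groups. HHcy 6 was the low array for the signals of ATP5MC3 (0.852), COX5A (0.872), NDUFA4 (0.839), NDUFB8 (0.956), SDHB (0.853), SDHC (0.833) and UQCRC2 (0.950). It was also the low array for the median deviation of all members (0.913), complex I (0.944), complex II (0.916), complex III (0.915) and complex V (0.871). HHcy 8 was the high array for ATP5IF1 (0.841) and for COX6A2 (0.992), whose signal there was 715. Control 2 was the low control for the median of complex II (0.917). Over all 53 tested members, 12 had such an array in HHcy, HHcy 6 being the lowest in 11 of them, and 2 had one among controls.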

How the results depend on the processing

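No paired analysis was possible because the groups share no replicate numbers, controls being 1 to 4 and HHcy dogs 5 to 8. Leaving out each array in turn, 0 members were called lower and 0 higher, and 7 to 13 were lower and 0 to 2 higher at an unadjusted p under 0.05. With all arrays, 5.94% of all probe sets were lower and 11.9% higher at that threshold. When 1 array was left out, the median log2 fold change ran from -0.72 to 0.096 for all members, -0.69 to 0.096 for complex I, -0.60 to 0.25 for II, -0.75 to -0.011 for III, -0.44 to -0.23 for IV and -0.66 to 0.16 for V, each upper end being without HHcy 6. The 10 lower members became 0 when the 3'/5' ratio entered as covariate and 4 without HHcy 5 and HHcy 6. With the covariate 2.13% of all probe sets were lower and 3.34% higher, in place of 5.94% and 11.9%, so the drop was not limited to the members. The mean log2 3'/5' ratio was 4.02 on HHcy 5 and 6.31 on HHcy 6, against at most 1.51 in controls. Covariate and group are thus partly confounded. The 1 higher became 0 with median scaling, without the intensity trend, with the covariate and without HHcy 5 and HHcy 6. The count was 2 without control 2 and HHcy 6 and also with no filter, where the second was COX4I2, too dim for the main test. With the covariate the median turned from -0.42 to 0.33 for all members, and was 0.31 for complex I, 0.52 for II, 0.35 for III, -0.039 for IV and 0.32 for V. That of complex IV was -0.74 with median scaling and 0.23 with no filter. With no filter the dim COX4I2 and COX6A2 were added at 1.02 and 0.95, and the values of the genes already tested did not change. The median of all members was -0.51 with quantile scaling, -0.78 with median scaling and -0.073 with array weights, where that of all probe sets was 0.011, -0.19 and 0.10. With median scaling 13 members were lower at an unadjusted p under 0.05 (24.5%), against 13.5% of all probe sets. In that setting 14 did not overlap in the lower direction in place of 4, against 9.29% of all probe sets.

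Of 520 values of named members under alternatives, 462 kept their direction and 58 did not. With the covariate these were 0.32 for ATP5F1A, 0.46 for ATP5F1C, 0.68 for ATP5MC1, 0.42 for ATP5MC3, 0.35 for COX5A, 0.18 for CYC1, 0.33 for CYCS, 0.49 for NDUFA4, 0.25 for NDUFB5, 0.51 for NDUFB8, 0.56 for SDHB, 0.52 for SDHC, 0.13 for SDHD, 0.27 for UQCRC2 and 0.36 for UQCRH. With array weights they were 0.065 for ATP5F1A, 0.036 for ATP5F1C, 0.056 for NDUFA4, 0.074 for NDUFB8, 0.024 for SDHB, 0.0038 for SDHC and 0.14 for UQCRH. Without HHcy 5 and HHcy 6 they were 0.13 for ATP5F1A, 0.080 for ATP5F1C, 0.14 for ATP5MC1, 0.038 for ATP5MC3, 0.12 for NDUFA4, 0.47 for NDUFB8, 0.28 for SDHB, 0.22 for SDHC and 0.058 for UQCRH. Without control 2 and HHcy 6 they were 0.10 for ATP5F1A, 0.17 for ATP5F1C, 0.17 for ATP5MC1, 0.044 for ATP5MC3, 0.17 for NDUFA4, 0.0083 for NDUFB5, 0.097 for NDUFB8, 0.12 for SDHB, 0.12 for SDHC and 0.22 for UQCRH. ATP5F1B had -0.28 with median and -0.056 with quantile scaling, where NDUFB8 had 0.00097. Leaving out 1 array gave -0.38 to 0.19 for ATP5F1A, -0.059 to 0.25 for ATP5F1B, -0.66 to 0.16 for ATP5F1C, -1.03 to 0.21 for ATP5MC1, -0.81 to 0.040 for ATP5MC3, -0.42 to 0.042 for COX4I1, -0.64 to 0.17 for NDUFA4, -0.43 to 0.48 for NDUFB8, -0.59 to 0.26 for SDHB, -0.60 to 0.25 for SDHC and -0.45 to 0.26 for UQCRH. The cause of these differences was not tested. No detection calls were used, and dim signals near the pseudocount limit COX4I2, COX6A2 and NDUFC1.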
